A study of Mus musculus with 4 samples.

Results

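Accessible chromatin at the Hox clusters was described in quiescent satellite cells, the resting stem cells of skeletal muscle, of mdx mice and of wild type mice. The members are the regions of the deposited ATAC-seq table whose linked gene name starts with Hoxa, Hoxb, Hoxc or Hoxd. Of the 16 such regions, 15 are described here, linked to 13 genes, and every count below is over these 15. The table holds 35019 regions in all, 11829 of them with a gene name, and 0 of the Hox names belonged to an opposite-strand transcript. ATAC-seq uses the Tn5 transposase to cut and tag DNA that is open, so reads pile up at active promoters and enhancers. The mdx mice, labelled as muscular dystrophy, carry the mdx allele of the X-linked dystrophin gene and lack functional dystrophin, and the wild type mice have the normal gene. Both groups consist of cells purified by flow cytometry, between 10000 and 20000 per library. The submitters speak of 3 mice for each condition, and the table holds 2 libraries per group. The muscle the cells came from, and the age, sex and strain of the mice, were not stated in the sources used here. The labels do not tie a library to an animal, and a p-value here reflects the scatter of these 4 libraries, which may be technical.

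Hox genes encode homeodomain transcription factors that tell a cell where it lies along the body axis and the limb. They stand in 4 clusters, HoxA to HoxD, in which the order of the genes, numbered by paralogue group from 1 to 13, follows the order in which they are used from head to tail and from shoulder or hip to digit. Polycomb complexes keep the unused part of a cluster silent and trithorax-group complexes keep the used part active, and adult cells, satellite cells among them, retain part of the Hox pattern of the position where they arose. In the mouse limb the paralogues numbered 9 to 13 pattern successive segments, and those numbered 11 to 13 act in the forearm, lower leg, hand and foot.

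Promoter windows of 300 bases, 250 before and 50 after each gene start, were taken from RefSeq on GRCm38.p6. These 5 are shown because they span the pattern described below, with CpG dinucleotides in capitals. The windows of Hoxd9 (chr2:74697513-74697812, plus strand) and Hoxd10 (chr2:74691641-74691940, plus strand) overlapped a listed region. Those of Hoxd13 (chr2:74667975-74668274, plus strand), Hoxb4 (chr11:96318017-96318316, plus strand) and Hoxb8 (chr11:96281655-96281954, plus strand) did not.
Hoxd9: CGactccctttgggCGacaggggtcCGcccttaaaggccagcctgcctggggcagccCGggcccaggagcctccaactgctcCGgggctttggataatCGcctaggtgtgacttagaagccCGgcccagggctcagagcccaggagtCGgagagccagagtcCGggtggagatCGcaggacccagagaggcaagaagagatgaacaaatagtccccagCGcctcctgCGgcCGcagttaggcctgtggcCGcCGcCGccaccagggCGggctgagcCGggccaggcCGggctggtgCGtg
Hoxd10: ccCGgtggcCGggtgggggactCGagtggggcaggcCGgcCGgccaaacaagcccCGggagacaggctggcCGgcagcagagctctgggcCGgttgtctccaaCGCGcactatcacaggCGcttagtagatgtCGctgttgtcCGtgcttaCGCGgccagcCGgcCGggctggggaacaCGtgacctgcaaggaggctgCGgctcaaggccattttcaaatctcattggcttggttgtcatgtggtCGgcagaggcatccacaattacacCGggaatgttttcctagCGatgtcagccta
Hoxd13: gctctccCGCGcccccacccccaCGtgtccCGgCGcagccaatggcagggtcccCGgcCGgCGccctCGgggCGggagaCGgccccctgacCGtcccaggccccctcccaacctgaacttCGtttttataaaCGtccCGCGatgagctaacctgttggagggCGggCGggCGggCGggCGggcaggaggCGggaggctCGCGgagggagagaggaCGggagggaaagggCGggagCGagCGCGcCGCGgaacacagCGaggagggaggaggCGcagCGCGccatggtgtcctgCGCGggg
Hoxb4: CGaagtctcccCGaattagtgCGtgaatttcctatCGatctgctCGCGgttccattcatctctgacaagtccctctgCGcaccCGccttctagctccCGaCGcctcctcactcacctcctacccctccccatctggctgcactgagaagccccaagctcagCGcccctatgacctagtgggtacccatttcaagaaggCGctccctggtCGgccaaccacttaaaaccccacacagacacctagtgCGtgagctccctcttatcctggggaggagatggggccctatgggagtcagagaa
Hoxb8: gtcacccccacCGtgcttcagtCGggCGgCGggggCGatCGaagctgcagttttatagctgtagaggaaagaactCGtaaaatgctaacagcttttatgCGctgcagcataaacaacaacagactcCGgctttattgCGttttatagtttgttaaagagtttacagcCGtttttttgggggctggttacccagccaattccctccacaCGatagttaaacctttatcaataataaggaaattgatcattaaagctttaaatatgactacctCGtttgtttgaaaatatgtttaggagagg
The Hoxd9 window holds 20 CpG and the Hoxd10 window 22. The Hoxd13 window, which no listed region overlapped, holds 37. The HoxB windows hold fewer, 14 in Hoxb4 and 13 in Hoxb8.

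The listed regions covered the clusters unevenly. HoxA held 8 of the 15 described regions, linked to 7 of the 10 genes counted there. HoxD held 5 regions, linked to 4 of its 9 genes, and HoxC held 2, linked to 2 of its 9 genes. HoxB held 0 regions for its 10 genes. Counted per gene, 13 of 38 Hox genes (34.2%) had a linked region, against 46.3% of the 21896 protein-coding genes of RefSeq, matched by symbol. The 25 Hox genes with 0 linked regions were Hoxa6, Hoxa11 and Hoxa13, the 10 genes Hoxb1 to Hoxb9 and Hoxb13, the HoxC genes Hoxc4, Hoxc5, Hoxc6, Hoxc8, Hoxc11, Hoxc12 and Hoxc13, and the HoxD genes Hoxd1, Hoxd4, Hoxd11, Hoxd12 and Hoxd13.

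The coverage also followed paralogue number. For paralogues 9 and 10, 6 of 7 genes had a linked region, all but Hoxb9. For paralogues 11 to 13, the group used farthest from the trunk, 0 of 9 genes had one. For paralogues 1 to 8, 7 of 22 genes counted had one, or 7 of the 14 that lie outside HoxB. Within each of HoxA, HoxC and HoxD the linked gene of highest number was therefore the paralogue 10 gene, and no Hox gene beyond it had a linked region. Regions without a gene name did lie beyond it in HoxC and HoxA. In HoxC, chr15:102943236-102943506 lies between Hoxc12 and Hoxc11 and is linked to an unnamed RNA inside Hotair. On the HoxA side, chr6:52270585-52270736 lies 9705 bp past Hoxa13, outside the span of the counted genes. It is linked to an unnamed RNA inside the noncoding gene Hottip.

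**Figure D1:**
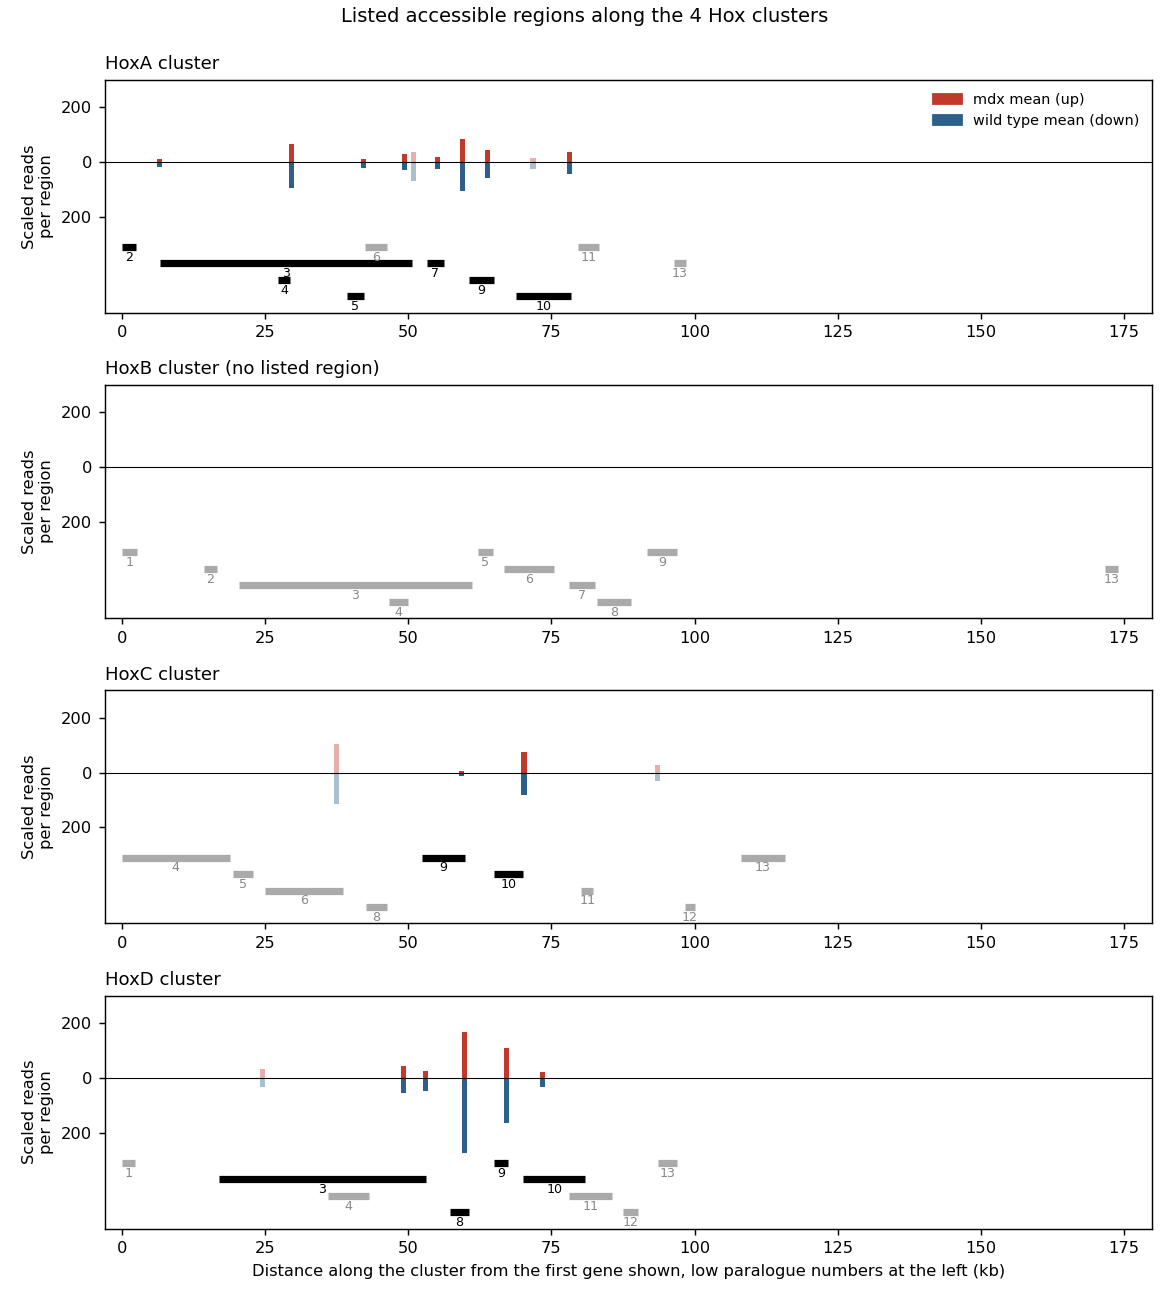
Listed accessible regions along the HoxA, HoxB, HoxC and HoxD clusters, with distance in kb from the low-numbered end on the horizontal axis and mean scaled reads per region as bars, mdx upward and wild type downward (n = 2 libraries each). Gene bars below are black where the gene has a linked region and grey where it has 0, and pale bars are regions inside the cluster that carry another gene or none. HoxB has 0 regions, and in HoxA, HoxC and HoxD no gene numbered above 10 is black.

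The HoxB cluster lay inside a stretch without any listed region. On chromosome 11 the table went from the promoter region of Atp5g1, ending at position 96076148, to a region starting at 96407780. This gap of 332 kb holds 12 protein-coding genes, Calcoco2, Ttll6 and the 10 Hoxb genes. Of 34989 gaps between neighbouring regions on the same chromosome, 96.7% were shorter, and the median was 26.6 kb. Among the 1167 gaps at least as long, the median held 1 protein-coding gene, and 83 held 12 or more. The span of the HoxB genes measured 174 kb, against 98.5 kb for the genes counted in HoxA with 10.16 listed regions per 100 kb, 116 kb for HoxC with 3.46 and 96.9 kb for HoxD with 6.19. The region numbers of the table run without a break. A stretch without a listed region is one where no region was listed, which does not show that the chromatin was closed.

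CpG-rich promoters are usually open in most cell types, and Hox promoters are CpG-rich. RefSeq gave 24 windows for 22 Hox genes. Of these windows 5 (20.8%) overlapped a listed region, namely Hoxa3, Hoxa5, Hoxd3, Hoxd9 and Hoxd10, against 34.2% of 32851 windows of all genes. Hoxa4, Hoxc9 and Hoxc10 have listed promoter regions but had no window. The promoter regions of Hoxd8 and Hoxa10 lay just outside the nearest window of their gene. The Hox shares of windows are therefore not shares of Hox genes with a listed promoter region. The ratio of observed to expected CpG compares the CpG count with that given by the C and G content. Its median was 0.63 over the Hox windows, against 0.38 over all windows. Among windows at or above 0.63, 4 of 12 Hox windows (33.3%) overlapped a listed region, against 76.5% of 11182 windows of all genes. No test was made of this difference, because neighbouring Hox windows share a cluster. Over all genes the median ratio was 0.80 in windows that overlapped a region and 0.24 in those that did not. In Hox windows these medians were 0.75 and 0.59. The highest ratios among Hox windows that overlapped no listed region were those of Hoxb8 (0.97), Hoxa13 (0.92), Hoxa6 (0.92) and Hoxd13 (0.90), above the median of 0.80.

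**Figure D2:**
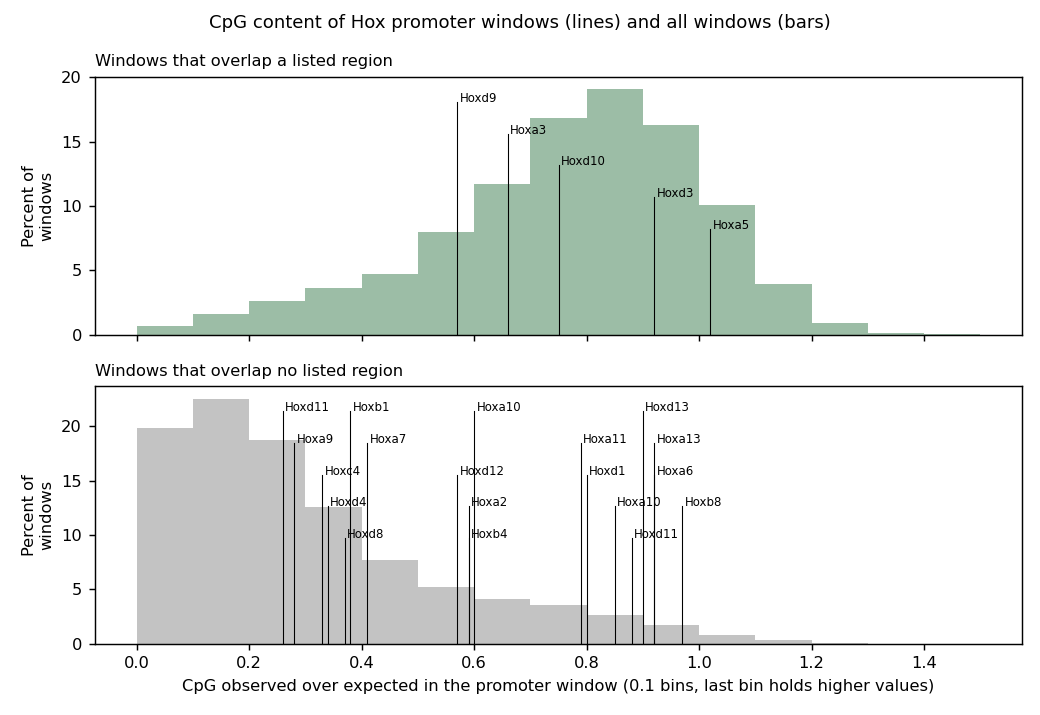
Observed over expected CpG in 300-base promoter windows (horizontal axis, a ratio without unit) against the percent of windows in each bin of 0.1 (vertical axis), for windows that overlap a listed region above and for the others below. Bars are all genes and lines mark Hox windows, of which 5 stand in the upper panel and 19 in the lower, Hoxb8, Hoxa13, Hoxa6 and Hoxd13 at 0.90 or above.

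Short motifs were counted on both strands of the same windows, as a description of their letters. TGATTGAT, a site of Hox proteins with their partner PBX, was in 2 of 24 Hox windows (Hoxa2 and Hoxd11), and in 0.746% of all windows. TGATTTAT, another such site, was in 0 Hox windows and in 0.977% of all windows. The homeodomain core TAATTA was in 2 Hox windows, both of Hoxd11, and in 5.29% of all. TGACAG, bound by MEIS factors, was in 2 Hox windows (Hoxa2 and Hoxa3) and in 19.2% of all. The E-box CAGCTG, a MyoD-type site, was in 4 Hox windows (16.7%), all in HoxA, and in 16.3% of all. The core motif of the insulator protein CTCF was in 0 Hox windows and in 0.0365% of all. Each motif was counted on its own, so matches of different motifs may overlap.

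A listed region was called a promoter region where it overlapped the 1 kb on either side of the start of its linked gene, and distal otherwise. By this measure 9 of the 15 Hox regions were promoter regions, against 86.9% of all regions with a gene name. The Hox regions were also narrow, with a median width of 271 bp, or 329 bp for the promoter regions, against 510 bp for named regions and 538 bp for named promoter regions. Values are scaled reads, which are the authors' reads per region multiplied by 1 factor per library and rounded. Set per length, the median Hox region had 167 scaled reads per kb, against 218 for named regions and 152 for all regions.

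Levels per kb of region, averaged over the 4 libraries, ran between 63 and 273 scaled reads per kb. The highest was the distal region of Hoxa9, with 231 and 237 in mdx and 323 and 301 in wild type cells. The farther distal region of Hoxa7 followed, with 241 and 233 in mdx and 330 and 279 in wild type cells, so the libraries of these 2 regions overlapped. Next came Hoxc10, Hoxa4, the farther region of Hoxd3, the nearer region of Hoxa7, Hoxd8, Hoxd9, Hoxa3, Hoxa10, Hoxa5, Hoxd10, the nearer region of Hoxd3, Hoxa2 and Hoxc9. Of the 14 neighbouring pairs in this order, 8 overlapped between libraries in both groups. Hoxa10 and Hoxa5 alone were separate in both, Hoxa10 having 129 and 129 per kb in mdx and 159 and 170 in wild type cells, and Hoxa5 having 37 and 86 in mdx and 147 and 123 in wild type cells. Spearman's rho of these levels per kb over the 15 regions lay between 0.825 and 0.939 for the 6 pairs of libraries. These regions share libraries, so rho is a description.

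Summed per cluster and library, the described regions of HoxA had 291 and 294 scaled reads in mdx cells and 427 and 368 in wild type cells. Those of HoxD had 359 and 380 in mdx and 586 and 559 in wild type cells, and those of HoxC 74 and 88 in mdx and 101 and 85 in wild type cells. These are sums over the described regions and not totals of the clusters, and HoxC, with 2 regions, had the lowest sum in every library. The ratio of HoxA to HoxD was 0.811 and 0.774 in mdx and 0.729 and 0.658 in wild type cells. The mdx ratios were both above the wild type ratios, a separation for which an exact permutation test of 2 against 2 libraries cannot give a p below 0.333. The order depends on the measure. Averaged over the libraries, HoxA over HoxD was 0.74 by sums, 0.32 over promoter regions and 1.19 per kb of described region, and HoxC over HoxD was 0.19 by sums and 1.2 per kb.

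The comparison of mdx with wild type cells asks whether the dystrophic setting comes with a different accessibility of the position code of these cells. The described Hox regions had lower mean scaled reads in mdx cells, and none passed the test. With limma, adjusted over all 33161 tested regions at a threshold of 0.05, 0 Hox regions were called higher and 0 lower in mdx, and 2 of 15 (13.3%) had an unadjusted p under 0.05 (Hoxd8 and Hoxd9), against 23.0% of all tested regions and 21.0% of the named promoter regions. Among all tested regions 4.18% were called, 3.3% higher and 0.881% lower in mdx. Among tested regions with a gene name the share was 2.31%, and among named promoter regions it was 2.23%, with 0.444% higher and 1.79% lower in mdx. The 15 Hox regions were all tested, since each reached 10 scaled reads in 2 or more libraries. Hoxc9 met this rule only through its wild type libraries.

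The log2 fold change, the mean log2(value + 1) of mdx less that of wild type, had a median of -0.53 over the 15 Hox regions, against -0.01 over all tested regions and -0.26 over tested promoter regions with a gene name. It was below 0 for the 15 described here, against 50.6% of all tested regions and 77.1% of the named promoter regions. Hoxa3 and Hoxc10 changed sign with promoter medians set equal across libraries, while the median of the Hox regions was below 0 under every scaling tried. Except for cyclic loess, a level-dependent scaling that gave -0.59, these scalings move all regions of a library by about the same amount. They are therefore no check on the Hox median against that of all regions. Both mdx libraries were below both wild type libraries in 12 of 15 Hox regions (80.0%), against 25.9% of all tested regions. For the 9 promoter regions the count was 8, against 45.6% of the named promoter regions, and for the 6 distal regions it was 4, against 24.0% of named distal regions. Hoxc9 is in the 15, the 12 and the 8, and its direction was fixed, since it met the filter only through its wild type libraries. Both mdx libraries were above both wild type libraries in 0 Hox regions, against 26.8% of all and 8.72% of the named promoter regions. The 3 regions whose libraries overlapped or tied were those of Hoxa3 and Hoxc10 and the nearer of Hoxa7. These shares describe regions that sit side by side in 3 clusters and are not independent, and they do not cover the 1 Hox region left out.

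**Figure D3:**
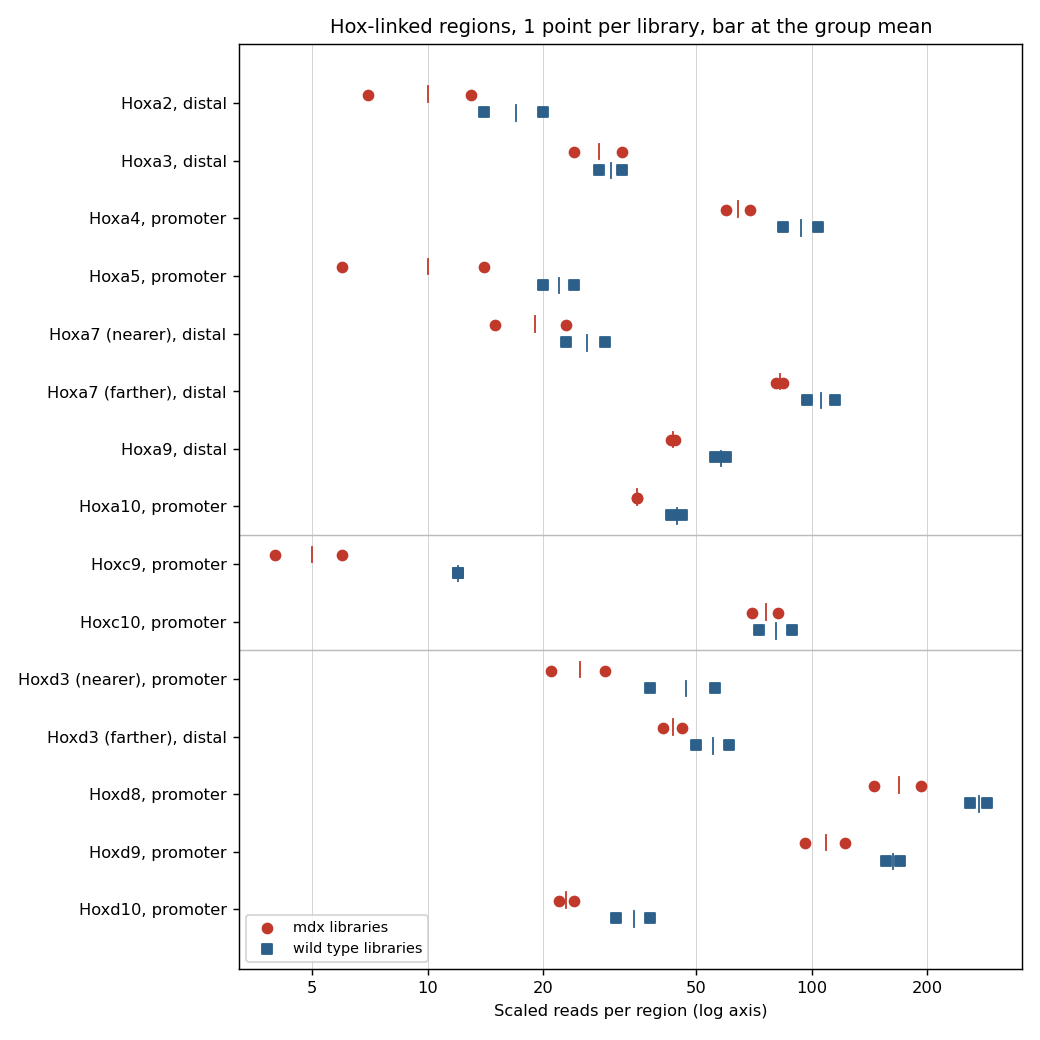
Scaled reads of the 15 described Hox-linked regions (horizontal log axis), 1 point per library and a bar at the group mean, mdx as circles and wild type as squares (n = 2 libraries each). In 12 rows both mdx points lie left of both wild type points, and in the rows of Hoxa3, Hoxc10 and the nearer Hoxa7 region they overlap or touch.

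In HoxD, all 5 regions, 4 of them promoter regions, had both mdx libraries below both wild type libraries. The share was 45.6% among named promoter regions and 24.0% among named distal regions, and the HoxD regions are neighbours. Hoxd8 and Hoxd9 lie in the middle of the cluster, and Hoxd9 and Hoxd10 act in the proximal limb and in lumbosacral patterning. The promoter region of Hoxd8 (chr2:74704698-74705885, mm10, beginning just downstream of the gene's start) was the widest of these Hox regions at 1187 bp. It had 145 and 193 scaled reads in mdx cells and 286 and 259 in wild type cells, resting on 105 and 166 reads in mdx cells and 234 and about 526 in wild type cells. The groups were separate, with 169.0 ± 33.9 in mdx and 272.5 ± 19.1 in wild type cells (SD, n = 2 each). Its log2 fold change was -0.70 (SE 0.22, 95% interval -1.18 to -0.22), with an adjusted p of 0.0885 by limma. This was the smallest p of the 15 regions.

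Hoxd8 crossed the threshold under some settings. The adjusted p by limma was 0.0394 when regions with a mean of at least 50 were tested, 17549 in number. With distal medians set equal it was 0.0111 at a log2 fold change of -1.04, and with promoter medians set equal it was 0.17 at -0.50. With replicate numbers crossed, a pairing added after seeing the data, the adjusted p of Hoxd8 by limma was 0.00944. Without an intensity trend it was 0.29. In the whole table these 2 settings called 5461 and 2 regions. With any 1 library left out the log2 fold change lay between -0.90 and -0.49. Such fits leave 1 library in a group, so their p-values are not given.

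The promoter region of Hoxd9 (chr2:74697635-74698448) covers the gene's start and part of the Hoxd9 window shown above. It had 122 and 96 scaled reads in mdx cells and 156 and 170 in wild type cells. Both mdx libraries were again the lower ones, and the log2 fold change was -0.59 (SE 0.25, 95% interval -1.12 to -0.05; adjusted p 0.18, limma). With distal medians set equal across libraries the adjusted p was 0.0276 at -0.92.

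The nearer region of Hoxd3 (chr2:74711946-74712329), a gene of neck vertebrae patterning, lies at its promoter. It had 29 and 21 scaled reads in mdx cells and 56 and 38 in wild type cells, with a log2 fold change of -0.88 (SE 0.41; adjusted p 0.227, limma), the most negative in HoxD. The farther region of Hoxd3 (chr2:74715882-74716126), 4077 bp downstream of the start and over the start of the antisense transcript Hoxd3os1, had 41 and 46 in mdx and 50 and 61 in wild type cells. Its log2 fold change of -0.34 was the least negative in HoxD. The Hoxd10 region (chr2:74691561-74691855), which overlaps the Hoxd10 window shown above, had the lowest mean per region of HoxD. It had 22 and 24 scaled reads in mdx cells and 38 and 31 in wild type cells (log2 fold change -0.56, SE 0.42, adjusted p 0.459, limma).

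In HoxA, 6 of the 8 described regions had both mdx libraries below both wild type libraries. Of the 8 regions 3 were promoter regions, and the share was 45.6% among named promoter and 24.0% among named distal regions. The farther Hoxa7 region (chr6:52221629-52221977) is 3092 bp upstream of the gene's start and overlaps no RefSeq gene. It had 84 and 81 scaled reads in mdx cells and 115 and 97 in wild type cells, with a log2 fold change of -0.35 (SE 0.27, adjusted p 0.468, limma). Hoxa4, used in the neck region of the axis, had a promoter region (chr6:52191865-52192255) with 69 and 60 in mdx and 104 and 84 in wild type cells (log2 fold change -0.53, SE 0.29, adjusted p 0.3, limma). In both regions the lower wild type library lay above the higher mdx library, and neither passed the test.

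Hoxa5, which acts in the lung and at the neck-to-thorax boundary, had the most negative log2 fold change of HoxA. Its region (chr6:52204465-52204628) covers the gene's start, and had 6 and 14 scaled reads in mdx cells and 24 and 20 in wild type cells. The log2 fold change was -1.16 (SE 0.59, 95% interval -2.44 to 0.12, adjusted p 0.264, limma), an interval that the low counts make wide. The lowest region of HoxA was distal to Hoxa2 (chr6:52168803-52168981, 4061 bp upstream), with 7 and 13 in mdx and 20 and 14 in wild type cells.

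The paralogue 9 and 10 genes of HoxA, active in limb, lumbar and blood stem cell programmes, had 1 region each. The Hoxa9 region (chr6:52226103-52226289) is distal, 1174 bp downstream of the start, with 43 and 44 scaled reads in mdx cells and 60 and 56 in wild type cells. Its log2 fold change was -0.41 (SE 0.33, adjusted p 0.501, limma). Hoxa10 (chr6:52240424-52240695) had 35 and 35 in mdx and 43 and 46 in wild type cells, with a log2 fold change of -0.34 (SE 0.36, adjusted p 0.619, limma). In both regions the libraries of a group were within a few scaled reads of each other and the groups were separate. Hoxa3, which acts in the thymus and other pharyngeal organs, had the least negative log2 fold change among the described HoxA regions. Its region (chr6:52211593-52211768), distal and 1434 bp downstream of the start, had 32 and 24 scaled reads in mdx cells and 32 and 28 in wild type cells, and the groups overlapped. The log2 fold change was -0.11 (SE 0.42, adjusted p 0.908, limma), and 0.09 with promoter medians set equal. The nearer region of Hoxa7 had -0.45, and its highest mdx library tied with its lowest wild type library.

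HoxC was represented by its paralogue 9 and 10 genes, which specify thoracic and lumbar levels of the spinal cord and skeleton. Hoxc10 (chr15:102966492-102966821, covering the start) had 70 and 82 scaled reads in mdx cells and 89 and 73 in wild type cells, and the groups overlapped. The log2 fold change was -0.09 (SE 0.29, 95% interval -0.72 to 0.54, adjusted p 0.889, limma), and 0.11 with promoter medians set equal. Hoxc9 (chr15:102977496-102977630) was the lowest of these Hox regions, with 4 and 6 in mdx and 12 and 12 in wild type cells. It rests on 3 and 5 reads in mdx cells and 10 and about 24 in wild type cells, and its log2 fold change of -1.14 (SE 0.71, 95% interval -2.67 to 0.40, adjusted p 0.364, limma) is correspondingly uncertain.

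**Figure D4:**
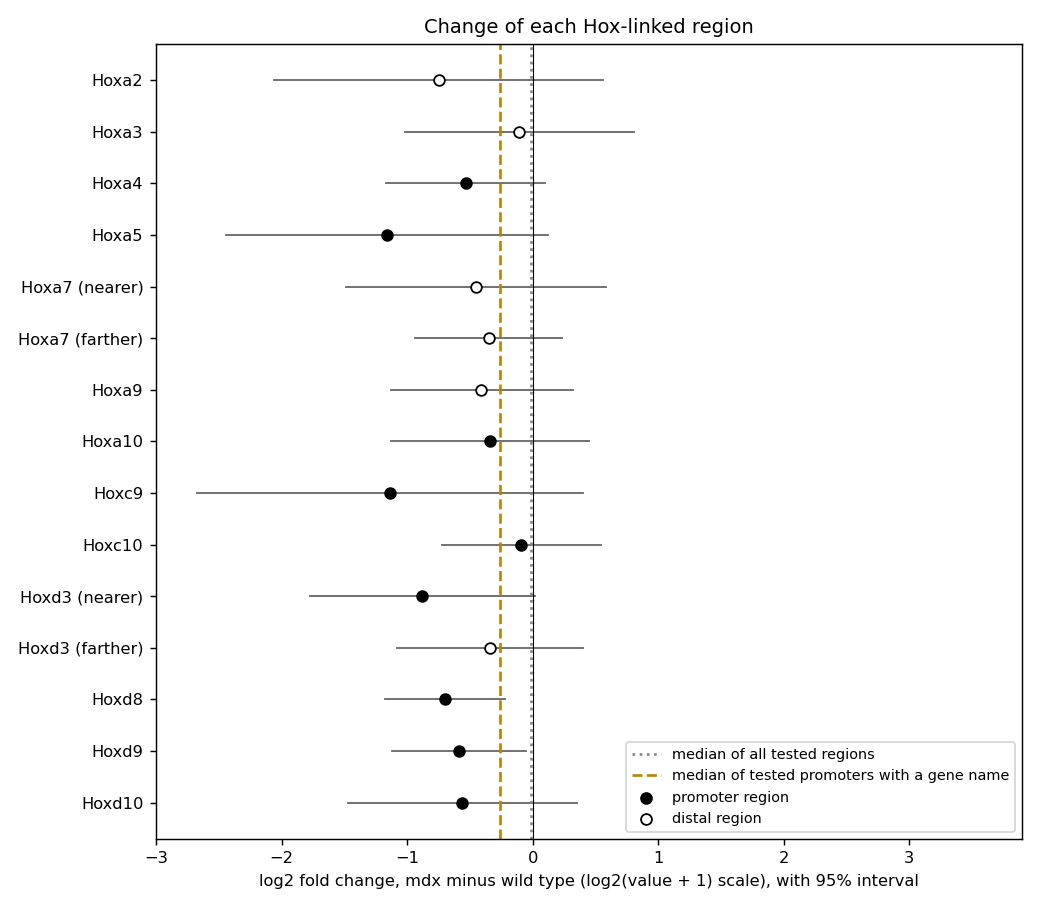
Log2 fold change of the 15 described Hox-linked regions, mdx less wild type in log2(value + 1) units (horizontal axis), with 95% intervals from limma, filled for promoter and open for distal regions. The dotted line is the median of all tested regions (-0.01) and the dashed line that of tested promoter regions with a gene name (-0.26). The 15 points lie below 0, and Hoxa3 and Hoxc10 change sign when promoter medians are set equal.

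Summed over the 15 regions, the libraries had 724 and 762 scaled reads in mdx cells and 1114 and 1012 in wild type cells. Promoter regions as a class held a smaller share in mdx, with 52.8% and 57.2% of the reads of nuclear regions in mdx cells and 64.1% and 61.1% in wild type cells. Counted against promoter reads alone, Hox promoter regions held 2.61 and 2.57 per 10000 in mdx and 3.25 and 3.29 in wild type cells. This sum includes Hoxc9, whose direction was fixed by the filter. How often other promoter regions separate on this scale was not counted. Whether the share of promoter reads plays a part in the Hox values was not tested. In a bulk preparation, fewer cells with an open region and less opening per cell cannot be told apart.

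The sorted population was checked against its markers. All 12 satellite cell marker genes, Pax7, Myf5 and Myod1 among them, had a linked region, with sums of 2025 to 2074 scaled reads in mdx cells and 2252 to 2520 in wild type cells. Of their 15 tested regions 0 were called, with a median log2 fold change of -0.16. It was below 0 in 11 (73.3%), against 73.8% of tested regions with a gene name. An unadjusted p under 0.05 by limma was found for 3, against 20.9% of tested regions with a gene name. These were the promoter regions of Calcr (-0.77, adjusted p 0.0667), Cd34 (-0.79, adjusted p 0.163) and Spry1 (-0.49, adjusted p 0.204), by limma. Of 8 genes of fibro-adipogenic progenitors 6 were linked, with sums of 700 to 712 in mdx and 461 to 519 in wild type cells, and the distal region of Col1a2 rose in mdx (log2 fold change 1.86, adjusted p 0.0157, limma). The higher sums came mainly from Col1a2 and Osr1, whose promoter region had 88 and 100 in mdx and 37 and 46 in wild type cells, while the median log2 fold change of the 10 regions was 0.12 and those of the 2 Pdgfra regions were -0.27 and -0.30. The mural and glial markers had 4 of 8 genes linked, with sums of 485 to 576 in mdx and 393 to 465 in wild type cells. Endothelial markers were linked for 1 of 8 genes (Tek, 131 to 152 in mdx and 131 to 146 in wild type cells) and immune markers for 1 of 8 (Csf1r, 19 to 21 in mdx and 9 to 15 in wild type cells). Pecam1, Cdh5, Ptprc and Cd68 had 0 linked regions. The part of these other cell types in the Hox values was not tested. The recovered reads in listed regions were between 3208475 and 3607633 in mdx and between 3693096 and about 8165206 in wild type cells, the highest being wild type replicate 2.

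Regions inside the clusters that carry another gene or none added to the picture. A region of the HoxA cluster linked to Gm28308 (chr6:52213261-52213503) overlaps the RefSeq promoter window of Hoxa3. It had 47 and 24 scaled reads in mdx cells and 86 and 51 in wild type cells (log2 fold change -0.96, SE 0.42, adjusted p 0.191, limma). In HoxC a region inside Hoxc6 (chr15:102999130-102999609), linked to no gene, had 102 and 109 in mdx and 134 and 95 in wild type cells. It had the most scaled reads per region inside the HoxC span, and the list of linked names leaves it out. In HoxD a region inside Hoxd3 (chr2:74740399-74740735) had 23 and 42 in mdx and 27 and 42 in wild type cells. With these and the others inside the spans, 20 regions had a median log2 fold change of -0.49, and 0 were called. Of the 20 regions 3 had an unadjusted p under 0.05 by limma, against 23.0% of all tested regions.

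The Hox clusters also encode noncoding RNAs that act on them, and none of 10 such genes was linked by name. An unnamed microRNA gene was identified as Mir196b by its identical position in RefSeq. miR-196 is known in the mouse to direct cleavage of the Hoxb8 messenger RNA. Its mature strand (chr6:52230129-52230150, minus strand, GRCm38.p6, RefSeq) is shown because the table links a region inside Hoxa10 to this gene, with the seed, bases 2 to 8, in capitals.
mmu-miR-196b-5p: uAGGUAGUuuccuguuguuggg
The region (chr6:52234103-52234302) is 4038 bp from the microRNA gene and lies inside Hoxa10. It had 14 and 17 scaled reads in mdx cells and 22 and 26 in wild type cells, with a log2 fold change of -0.60 (SE 0.49, adjusted p 0.498, limma). A region linked to an unnamed RNA inside Hotair (chr15:102943236-102943506), a noncoding RNA of the HoxC cluster, had 19 and 37 in mdx and 35 and 27 in wild type cells, which overlap.

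Genes that work with or on the Hox clusters were given by list. For comparison with the lists, 20.9% of tested regions with a gene name had an unadjusted p under 0.05 by limma. Of the TALE homeodomain cofactors, the PBX, MEIS and PREP proteins that bind DNA together with Hox proteins, 8 of 9 genes had a linked region. Of 9 tested regions 0 were called in either direction and 1 had an unadjusted p under 0.05 by limma, with a median log2 fold change of -0.12. The smallest p was that of the distal region of Meis1, with 113 and 131 scaled reads in mdx cells and 199 and 179 in wild type cells (log2 fold change -0.63, SE 0.23, adjusted p 0.132, limma).

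Factors and signals that set Hox expression in the embryo had 6 of 13 genes linked, and Cdx1, Cdx2 and Cdx4, which turn on central Hox genes, had 0 linked regions. Of 6 tested regions 0 were called and 0 had an unadjusted p under 0.05 by limma, with a median of -0.08. The retinoic acid receptor gene Rarg had the smallest p, with 62 and 95 in mdx and 107 and 95 in wild type cells (log2 fold change -0.39, adjusted p 0.47, limma). Genes that maintain Hox states, of the Polycomb and trithorax groups with the insulator gene Ctcf, had 13 of 14 linked. Of their 13 promoter regions 0 were called, with a median of -0.16. An unadjusted p under 0.05 by limma was found for 3 of the 13, against 21.0% of the named promoter regions. Rnf2, which encodes the ubiquitin ligase of Polycomb repressive complex 1, had the smallest p, with 495 and 538 in mdx and 782 and 728 in wild type cells (log2 fold change -0.55, SE 0.15, adjusted p 0.0642, limma).

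Genes that flank the clusters had 12 tested promoter regions, of which 2 fell in mdx and 0 rose, with a median log2 fold change of -0.37. Both lie on chromosome 2, on either side of HoxD but not next to it, and 1.79% of all named promoter regions fell. The counted HoxD genes span positions 74668225 to 74765142. Lnpk (chr2:74578620-74579241) and Mtx2 (chr2:74825702-74826171) lie nearer to HoxD and were not called. Their log2 fold changes were -0.39 (adjusted p 0.23, limma) and -0.34 (adjusted p 0.613, limma). Atf2 (chr2:73892329-73893158), which encodes a stress-responsive transcription factor, had 322 and 359 scaled reads in mdx cells and 627 and 532 in wild type cells, or 340.5 ± 26.2 in mdx and 579.5 ± 67.2 in wild type cells (SD, n = 2 each). Its log2 fold change was -0.76 (SE 0.17, adjusted p 0.0338, limma). Hnrnpa3 (chr2:75658725-75659960), an RNA-binding protein gene, had 456 and 566 in mdx and 928 and 757 in wild type cells (log2 fold change -0.72, SE 0.17, adjusted p 0.0383, limma). The Hoxd8 value of -0.70 has a similar size and a larger error, and the difference between these genes and Hox genes was not tested. With any 1 library left out, limma called 0 regions in the whole table, with 2305 to 5569 at an unadjusted p under 0.05.

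Markers of where a muscle lies were read beside the Hox genes. Of the limb and trunk patterning genes 6 of 12 had a linked region, and the forelimb gene Tbx5 and the hindlimb genes Tbx4 and Pitx1 had 0. Their 8 tested regions had 0 calls and 0 with an unadjusted p under 0.05 by limma, with a median log2 fold change of 0.19. The smallest p was that of Six4, a myogenic homeobox gene, with 39 and 40 in mdx and 61 and 55 in wild type cells (log2 fold change -0.54, adjusted p 0.369, limma). Of 6 genes of head muscle 4 were linked, with 5 tested regions, 0 calls and a median of -0.22. Of the 5 regions 1 had an unadjusted p under 0.05 by limma, against 20.9% of tested regions with a gene name. Isl1, a gene of pharyngeal muscle progenitors, had the smallest p, with 113 and 124 in mdx and 209 and 147 in wild type cells (log2 fold change -0.56, adjusted p 0.204, limma).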

How the data were processed

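The submitters' processing notes name the build mm10 and the tools DESeq2, DESeq, MACS2 2.1.0, Picard 2.9.0, STAR 2.5.3a and Trimmomatic 0.33. What each did, how duplicates and the Tn5 offset were treated, and whether peak calling used pooled libraries is not given in the sources read here. The authors deposited 1 table of 35019 regions, whose values are treated as a score: read counts per region that the authors multiplied by a factor per library and rounded. Most factors follow from gaps in the whole numbers: 1.382 and 1.162 for mdx and 1.222 for replicate 1 of wild type. The remaining library, wild type replicate 2, has an estimated factor of 0.492 and leaves no gaps; the 12 values between 10 and 389 that would hold an extra read occurred 1.52 times as often as the others. That ratio comes from the values the factor was fitted on, and each value of that library matches 2 or 3 read counts, so its reads are approximate. Dividing by the factors gave the reads quoted, which cover counting error only. Whether starts count from 0 or 1 is not stated.

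The 33161 regions that reached 10 in 2 or more libraries were tested in R 4.3.3 by limma 3.58.1, with an intensity trend, on values taken as log2(value + 1), which understates the change of low regions. The adjusted p is Benjamini-Hochberg over all of them. With the intensity trend, limma takes the error of a region partly from regions of similar level. An SE or interval here is therefore not the scatter of that region alone. Levels were described without a test. Promoter windows, gene positions and the microRNA came from RefSeq (GRCm38.p6). The 13 linked Hox genes matched by symbol and overlapped their RefSeq positions. No genome was used, so region sequences were not read.

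The results of 1 Hox region and of 1 gene of another list are not reported here and enter no count, for a reason unrelated to their values. The members and lists were chosen with earlier results of these data known. Named genes are, in each cluster, the 3 highest and the lowest linked regions and those with the highest and lowest log2 fold change, the highest region of each paralogue 9 to 13, and every gene with 0 linked regions. In other lists they are the members that passed or else the smallest p. Regions inside the spans that carry other names, and the promoter windows shown, were chosen after their values were seen. Alternatives covered scaling, filter, pseudocount, variance prior, replicate block, level measure, promoter window and leaving out each library.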

Additional observations from a re-analysis of the deposited data

How the results depend on the processing

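The count of Hox regions called in mdx stayed at 0 higher under every setting tried, by limma. The count called lower was 0 except for 2 with distal medians set equal, 1 with a mean of at least 50 required and 1 with crossed replicate numbers, a pairing added after seeing the data. Fits with a library left out leave 1 library in a group and called nothing in the whole table, so they do not test these counts. Setting distal or promoter medians equal shifted the median of all regions to -0.35 or 0.19 and that of the Hox regions to -0.87 or -0.33. Both settings move every region of a library by the same amount. The difference of -0.52 between the medians was therefore fixed in advance and is no check. Leaving out each library gave a Hox median of -0.61 to -0.39, against -0.53. With the replicate block 0 Hox regions were called and the median was -0.53. Same-numbered libraries did not deviate together (r = -0.109 over 33161 regions). With a single difference between libraries in each group, this cannot settle whether the numbers pair them, and the labels do not say. The block called 2761 regions in the whole table, against 1387 without it, and crossing called 5461.

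Of 201 recomputed values of single Hox regions, 193 kept their direction and side of the threshold, 3 passed it and 5 changed sign, in 2 regions. Hoxa3 was 0.09 both with promoter medians equal and without mdx replicate 2, with -0.31 to 0.09 over single libraries left out. Hoxc10 was 0.11 with promoter medians equal, 0.02 without mdx replicate 1 and 0.05 without wild type replicate 1, with -0.23 to 0.05 over single libraries left out. The cause was not tested. HoxA over HoxD, 0.74 over the linked regions, was 1.19 per kb, 0.32 over promoters and 0.83 over all regions of the span, and 0.72 to 0.77 with 1 library left out. HoxC over HoxD, 0.19, was 1.2 per kb, 0.21 over promoters and 0.46 over all regions of the span, and 0.18 to 0.20 with 1 library left out. The regions with the fewest reads, Hoxc9, Hoxa2 and Hoxa5, had the widest intervals, and the whole table gave 458 calls with no filter and 2 without an intensity trend.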

Other observations

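Outside HoxB, 92 other gaps between neighbouring regions held 12 or more protein-coding genes. The largest of these by genes lay on chromosome Y, with 214 protein-coding genes in 78900 kb, led by genes named Gm. Next were a stretch of chromosome 2 with 100 genes, 98 of them olfactory receptor genes named Olfr, and one of chromosome 7 with 96, of which 77 were vomeronasal receptor genes named Vmn.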
